A study of Mus musculus with 2 samples.

Results

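The thermogenic transcription regulators described here are 10 genes of brown adipose tissue, chosen by gene symbol, with no measured value in the rule: the coactivators Ppargc1a and Ppargc1b, the brown fat identity factors Prdm16 and Ebf2, the nuclear receptors Esrra, Esrrg, Ppara and Pparg, the factor Irf4, and Dio2, an enzyme that supplies the tissue with active thyroid hormone. All 10 were found by symbol among the 27179 genes listed, and all 10 were among the 15212 genes examined (those averaging 10 or more normalised counts over both libraries). RNA came from the interscapular brown fat (iBAT), a thermogenic depot of the upper back, of untreated C57BL/6N mice aged 20 days. Wild-type animals were compared with animals carrying a knockout of Ucp1 (Ucp1-KO, written Δ/Δ by the submitters, who do not describe the allele further), and each genotype was 1 library made from 3 pooled animals. With 1 library per genotype there was no spread between replicates, no test and no p-value, so every difference below is one between these 2 libraries, and intervals cover counting error only.

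Brown adipocytes burn fuel to make heat, and the genes for this are switched on by a small set of regulators that act together. PGC-1α and PGC-1β, made from Ppargc1a and Ppargc1b, do not bind DNA themselves but are recruited by nuclear receptors such as the PPARs and the estrogen-related receptors, and they raise the output of mitochondrial and fatty acid oxidation genes. PRDM16 and EBF2 set brown rather than muscle or white fat identity, and IRF4 works with PGC-1α on thermogenic genes. Cold acts on this set through noradrenaline and cyclic AMP, which are known to induce Ppargc1a and Dio2.

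Both libraries were similarly deep, at 52950913 (wild-type) and 53216727 (Ucp1-KO) counts. Ucp1, the targeted gene, was at 12.7% of its wild-type level in the library labelled Ucp1-KO (95% counting interval 12.5% to 12.9%), so it was much lower but not at 0. Although the animals are described as male, 4 Y-linked genes summed to 0 counts for wild-type and to 5305 for Ucp1-KO, and genotype and the sex of the pooled animals therefore cannot be told apart. Skeletal muscle markers took 0.669% of counts in wild-type but 0.0805% in Ucp1-KO, with 19 of 19 at least 2-fold lower in Ucp1-KO. In bulk tissue, fewer cells of a type and less RNA per cell cannot be told apart either.

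The regulators did not move as a block. Dio2, Ppargc1a and Prdm16 were at least 2-fold higher in the Ucp1-KO library, and Irf4 was about 4-fold lower. Esrrg and Ppargc1b were higher by less than 2-fold, and Ppara, Pparg, Esrra and Ebf2 lay within 1.3-fold of their wild-type level. Differences are given as the log2 ratio, log2((Ucp1-KO + 0.5)/(wild-type + 0.5)) on counts normalised by median-of-ratios size factors. By a size rule of 2-fold, 3 of 10 members were higher, against 7.42% of all genes examined, and 1 was lower, against 9.55%. Beyond counting error 8 members were higher, against 31.5% of all genes, and 1 was lower, against 30.5%. The direction of small differences depended on the scaling. With total counts, 5 members were higher and 3 lower beyond counting error, against 14.4% and 53.9% of all genes. By the 2-fold rule that scaling put 4.80% of all genes higher and 15.2% lower, and the members stayed at 3 and 1. Mitochondrially encoded genes, which enter the total, took 21.4% of the wild-type total but 30.7% of that of Ucp1-KO. The median log2 ratio of the members was 0.49, and that of all genes was -0.0016.

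**Figure D1:**
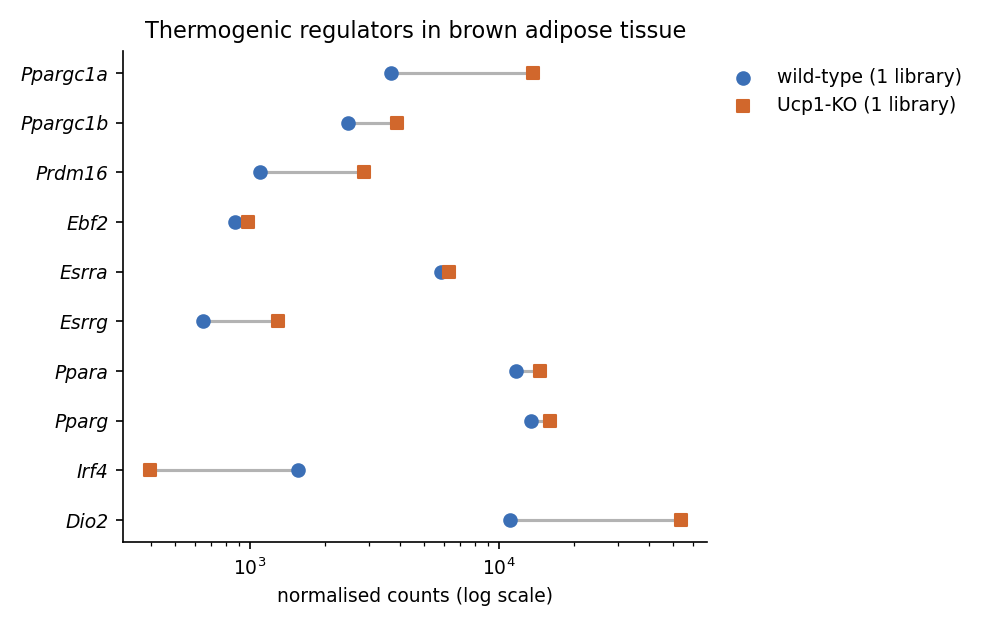
Normalised counts (log axis) of the 10 regulators, with a circle for the wild-type library, a square for the Ucp1-KO library and a line joining them; there is 1 library per genotype and no error bar. Dio2, Ppargc1a and Prdm16 sit further right in Ucp1-KO, Irf4 sits further left, and the circles and squares of Esrra nearly touch.

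Of the coactivators, Ppargc1a (Entrez gene 19017; GRCm39 chromosome 5, 51611592 to 51725068, minus strand) is the form induced by cold. Wild-type tissue gave 4105 counts of it (exact 95% Poisson interval 3929 to 4287) and Ucp1-KO tissue 12332 (12026 to 12644). Normalised, these were 3700.1 and 13682, a 3.70-fold higher level in Ucp1-KO with a counting interval of 3.52 to 3.89. The log2 ratio of 1.89 ranked 362nd from the top of 15212 genes. Among the 6395 genes averaging 1000 or more normalised counts, a level chosen after the values had been seen, 37 had a higher ratio.

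Ppargc1b (170826; chromosome 18, 61431195 to 61533735, minus strand), the relative that responds less to cold and also supports mitochondrial content, differed much less. It had 2748 and 3499 counts, or 2477 and 3882 after normalisation, which is 1.57-fold higher in Ucp1-KO (1.46 to 1.68). The coactivators therefore shifted against each other. Ppargc1a held 59.9% of the counts of the pair in wild-type (exact binomial interval 58.2% to 61.5%) and 77.9% in Ucp1-KO, a 2.36-fold change of their ratio (2.16 to 2.58) that no scaling between libraries can alter. Per length, Ppargc1a was 1.22 times Ppargc1b in wild-type and 2.88 times in Ucp1-KO with the union of exons. With the longest transcript the wild-type value was 0.871, so which coactivator was the more abundant in wild-type depended on the gene model.

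Of the identity factors, Prdm16 (70673; chromosome 4, 154400581 to 154721625, minus strand), a large zinc finger protein that partners with PGC-1 and C/EBP proteins, was the one that differed beyond counting error. Its counts more than doubled between the libraries, from 1216 (1121 to 1317) to 2586 (2447 to 2731). Normalised, it went from 1096 to 2869, 2.62-fold higher in Ucp1-KO (2.38 to 2.89), with a log2 ratio of 1.39 and rank 692 from the top.

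Ebf2 (13592; chromosome 14, 67470736 to 67668394, plus strand), the factor that opens brown-selective sites for PPARγ and also marks brown preadipocytes, had 968 and 889 counts. Its normalised level was 873 in wild-type and 986 in Ucp1-KO. The log2 ratio of 0.18 had an interval of -0.01 to 0.37 and changed sign with total-count scaling (-0.13), so no difference was detectable at this depth, and one of more than 1.29-fold higher lay outside the interval. The ratio of Prdm16 to Ebf2 changed 2.32-fold (1.97 to 2.73). Exons of Ebf2 share 424 bases with Gm10860 on the opposite strand, which had 20 and 8 counts.

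**Figure D2:**
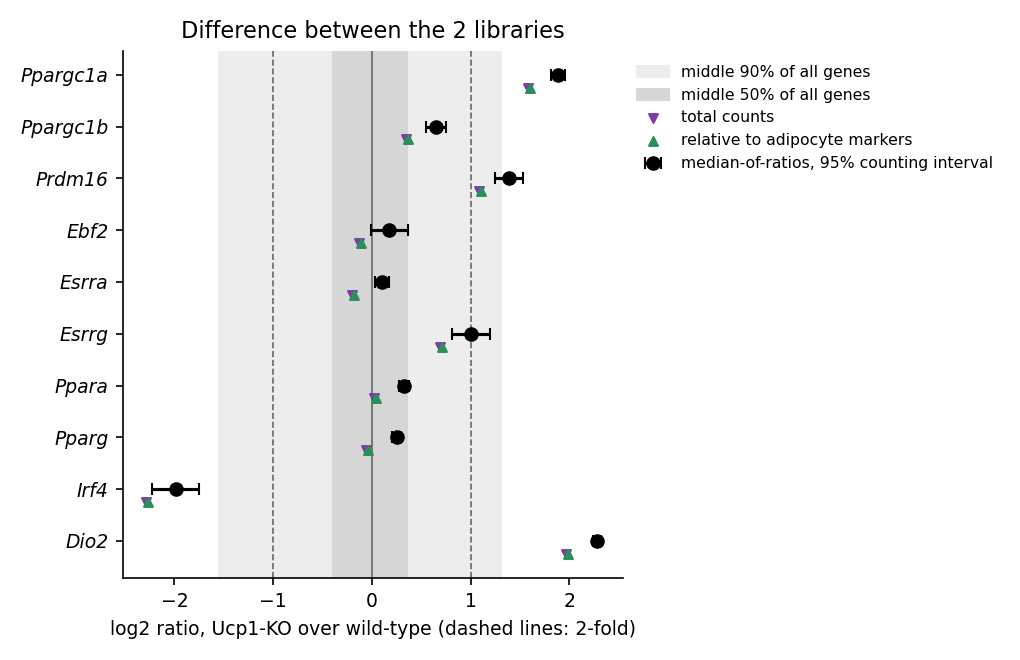
Log2 ratio of Ucp1-KO over wild-type for each regulator, with black points for median-of-ratios scaling and bars for the 95% counting interval, triangles for total-count scaling and for a reference to adipocyte markers, grey bands for the middle 50% and 90% of all genes and dashed lines at 2-fold. Dio2, Ppargc1a, Prdm16 and Irf4 stay beyond 2-fold under these scalings, and Esrra, Pparg and Ebf2 move across 0.

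The estrogen-related receptors are orphan receptors that need no known natural ligand and drive genes of the respiratory chain and citric acid cycle together with PGC-1. Esrra (26379; chromosome 19, 6888338 to 6899336, minus strand), the more abundant of them, gave 6500 wild-type and 5666 Ucp1-KO counts, or 5859 and 6286 after normalisation. Its log2 ratio of 0.10 (0.03 to 0.17) was beyond counting error but turned to -0.21 with total-count scaling and to -0.18 relative to adipocyte markers, so its direction was set by the scaling.

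Esrrg (26381; chromosome 1, 187340988 to 187947082, plus strand), the receptor typical of oxidative tissues, gave 721 wild-type counts (648 to 799) against 1171 Ucp1-KO counts (1078 to 1270). The normalised levels were 649.9 and 1299. At a log2 ratio of 0.9988 (0.81 to 1.19) it fell just short of the size rule, and total-count scaling gave 0.69. Its ratio to Esrra was 1.86-fold higher in Ucp1-KO (1.62 to 2.15), going from 0.0892 to 0.166 per length, so Esrra stayed the more abundant form in both libraries. Exons of Esrra share 1479 bases with Trmt112 on the opposite strand, and since the strand setting of the counting was not stated, some of its reads could belong to that gene, which had 687 and 451 counts.

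The PPARs are fatty acid sensors that bind DNA with a retinoid X receptor. Ppara (19013; chromosome 15, 85618656 to 85687067, plus strand), which controls fatty acid oxidation, gave nearly equal raw counts, 12989 and 13218. Normalised, these were 11708 and 14665, a log2 ratio of 0.32 (0.28 to 0.37). With total-count scaling the ratio was 0.02. Exons of Ppara share 1803 bases with Cdpf1 on the opposite strand, which had 575 and 337 counts.

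Pparg (19016; chromosome 6, 115337675 to 115468268, plus strand), the master factor of adipocyte formation, had 14981 and 14490 counts. Its normalised levels of 13503 and 16076 gave a log2 ratio of 0.25 (0.20 to 0.30), which became -0.06 with total counts. The adipocyte markers (Adipoq, Plin1, Fabp4 and others), 8 genes, had a median log2 ratio of 0.29, close to the values of both PPARs. All 8 are also among the 15 PPARγ targets described below, so these lists are not separate references. The ratio of Ppara to Pparg changed 1.05-fold (1.00 to 1.10), the smallest shift among the 4 pairs of related members.

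Irf4 (16364; chromosome 13, 30933209 to 30950959, plus strand) was the single member at least 2-fold lower in Ucp1-KO, and the only one lower at all by median-of-ratios scaling. In adipocytes it is induced by fasting and by cold and is known to bind PGC-1α, and it is also a factor of lymphocytes and dendritic cells. Wild-type tissue gave 1735 counts (1621 to 1854) and Ucp1-KO tissue 356 (306 to 412). After normalisation it went from 1564 to 395, or 25.3% of the wild-type level (21.4% to 29.7%). The log2 ratio of -1.98 (-2.23 to -1.75) ranked 476th from the bottom of 15212 genes, and over the alternative scalings it lay between -2.29 and -1.98.

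Markers of the immune cells that use Irf4 are given beside it. The 6 B and plasma cell markers summed to 184 wild-type and 172 Ucp1-KO counts, and of the 5 examined 1 was at least 2-fold higher (Jchain, 6 and 22 counts) and 0 lower. The 6 T cell markers summed to 149 and 97, and of the 5 examined 2 were at least 2-fold higher (Cd3e, 8 and 20 counts, and Cd8a, 12 and 22 counts) and 1 lower (Cd4, 59 and 13 counts). Cd3d, picked after its values had been seen and too low to be examined, had 10 and 0 counts. The 6 dendritic cell markers summed to 1971 and 1338 counts. Most of each sum came from Zbtb46 (1455 and 911 counts), picked after its values had been seen. Of the 5 examined 1 was at least 2-fold higher (Itgax, 29 and 66 counts) and 1 lower (Flt3, 48 and 10 counts). The 7 macrophage markers summed to 5239 and 5869, with 1 at least 2-fold higher (Cd68, 233 and 403 counts) and 0 lower. Cd3e and Cd8a lay within counting error, with log2 ratio intervals of -0.17 to 3.75 and -0.39 to 2.89. Beyond counting error 1 B and plasma cell marker was higher and 0 lower, and 0 T cell markers were higher and 1 lower. For dendritic cells 1 was higher and 2 lower, and for macrophages 3 and 0, against 31.5% and 30.5% of all genes. By the 2-fold rule 7.42% of all genes were higher and 9.55% lower. Total counts gave 2 macrophage markers higher and 2 lower beyond counting error, and 1 and 3 dendritic cell markers. For B and plasma cells and for T cells that scaling gave 0 higher and 1 lower each, against 14.4% and 53.9% of all genes. The part of these cells in the level of Irf4 was not tested. Skeletal muscle and endothelial markers were lower in the same library as Irf4, and their part in its lower level was not tested.

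Dio2 (13371; chromosome 12, 90691322 to 90705819, minus strand) encodes type 2 deiodinase, which converts thyroxine into the active hormone T3 inside the brown adipocyte. It had the largest difference of the 10 genes. Its counts were 12330 (12024 to 12642) for wild-type and 48488 (47880 to 49102) for Ucp1-KO. Normalised, it went from 11114 to 53794, 4.84-fold higher in Ucp1-KO (4.71 to 4.98), with a log2 ratio of 2.28. It ranked 236th from the top of all genes, and 19 of the 6395 abundant genes had a higher ratio. The related deiodinases Dio1 and Dio3, named after their values had been seen, were listed at 0 in both libraries.

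The genes of the thyroid hormone axis around Dio2 (receptors, transporters, enzymes that control deiodinase turnover, and responsive genes) did not share its large difference. Of these 12 genes none was 2-fold higher and 1 was 2-fold lower, against 7.42% and 9.55% of all genes. Beyond counting error 4 were higher and 7 lower, against 31.5% and 30.5%, with a median log2 ratio of -0.17. The gene past 2-fold lower was Hr, a corepressor induced by T3, with 894 and 357 counts and a log2 ratio of -1.02 (-1.28 to -0.77). Klf9 (-0.99) and Thrsp (-0.83), likewise known to respond to T3 and chosen after their values had been seen, were lower too. With total counts they were at -1.29 and -1.14, so that 3 of the 12 genes were past 2-fold lower, against 15.2% of all genes. The median was then -0.48, and beyond counting error 0 of the 12 were higher and 8 lower, against 14.4% and 53.9%. The receptor genes, also picked after seeing their values, differed by less than 2-fold. Thra was at -0.27 (-0.41 to -0.13), or -0.58 with total counts. Thrb was at 0.35 (0.19 to 0.50), or 0.04 with total counts. Thrsp is also a lipogenic gene, so its level is not a measure of the hormone alone.

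**Figure D3:**
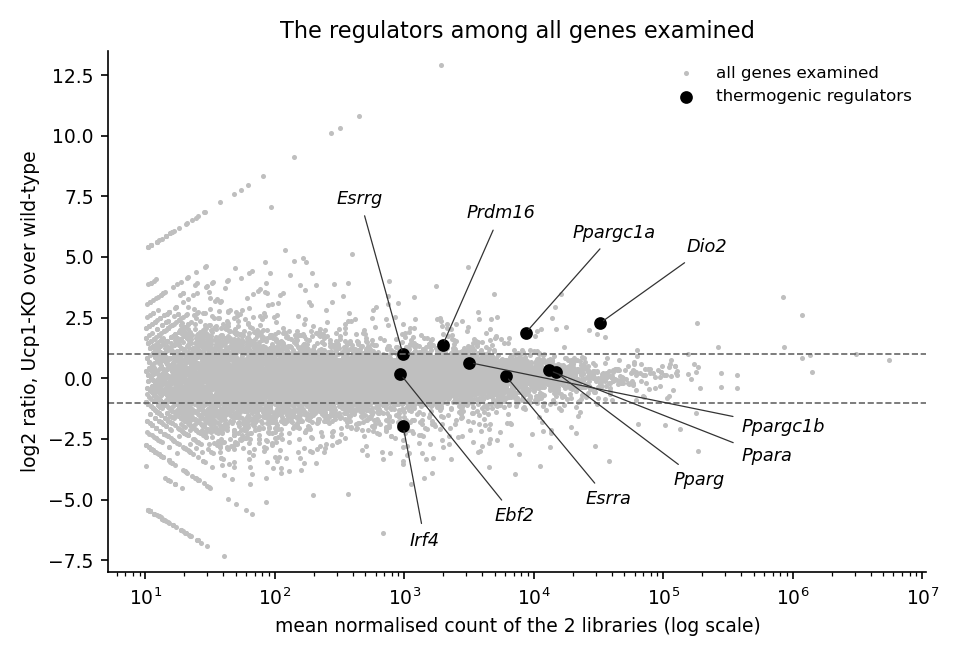
Log2 ratio of Ucp1-KO over wild-type against the mean normalised count (log axis) for the 15212 genes examined (grey), with the 10 regulators in black and dashed lines at 2-fold. Dio2 and Ppargc1a lie at the upper edge of the genes of similar abundance, Irf4 near the lower edge, and the PPARs inside the bulk.

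To show what lies upstream of the 4 members that differed most, the 250 bases before the annotated start are given 5′ to 3′ on the strand of the gene, from RefSeq on build GRCm38.p6, an older build than that of the gene positions above. Capitals mark a match to a motif searched on both strands. The motifs were TGACGTCA, the cyclic AMP response element (CRE), TGACG, its half-site, which also lies within it, AAGGTCA, the half-site that estrogen-related receptors and PPARs read, CCCNNGGG, the core of the EBF site, GAAANNGAA, a site of interferon regulatory factors, and TATAAA, the TATA box. They were chosen with the values known. The windows are chr12:90739039-90739288 (minus) for Dio2, chr5:51567726-51567975 (minus) for Ppargc1a, chr4:154636874-154637123 (minus) for Prdm16 and chr13:30748983-30749232 (plus) for Irf4.
Dio2: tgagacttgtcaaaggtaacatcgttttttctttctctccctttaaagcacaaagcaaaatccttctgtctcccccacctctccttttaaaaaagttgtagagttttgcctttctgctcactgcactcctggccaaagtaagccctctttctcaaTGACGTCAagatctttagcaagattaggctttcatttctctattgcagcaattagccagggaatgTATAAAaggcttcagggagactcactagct
Ppargc1a: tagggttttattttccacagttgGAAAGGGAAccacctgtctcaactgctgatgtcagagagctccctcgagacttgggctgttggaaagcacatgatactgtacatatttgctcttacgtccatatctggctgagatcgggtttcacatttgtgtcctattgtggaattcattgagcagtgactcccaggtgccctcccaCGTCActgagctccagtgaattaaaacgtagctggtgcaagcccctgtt
Prdm16: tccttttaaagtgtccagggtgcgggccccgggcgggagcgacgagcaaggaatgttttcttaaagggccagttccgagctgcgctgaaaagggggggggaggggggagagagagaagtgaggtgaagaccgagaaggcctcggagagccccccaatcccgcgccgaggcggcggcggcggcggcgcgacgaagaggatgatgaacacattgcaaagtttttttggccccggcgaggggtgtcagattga
Irf4: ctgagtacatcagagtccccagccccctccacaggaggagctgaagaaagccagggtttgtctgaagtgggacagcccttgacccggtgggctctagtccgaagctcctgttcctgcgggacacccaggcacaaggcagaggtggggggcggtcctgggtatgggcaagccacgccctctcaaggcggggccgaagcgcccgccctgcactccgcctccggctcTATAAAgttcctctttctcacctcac

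Dio2, the member with the largest difference, was the single one of the 8 members with a window in the table whose sequence held the whole CRE, at positions -95 to -88 from the start, beside a TATA box at -30 to -25. A whole CRE was found in 1.55% of 32817 promoter windows of this length. The Ppargc1a window held a CRE half-site at -49 to -45, a motif found in 17.8% of windows, and an interferon regulatory factor motif at -227 to -219, found in 7.12%. The Irf4 window held only a TATA box, at -26 to -21, found in 12.4% of windows, and the Prdm16 window held none of the motifs. AAGGTCA, present in 4.08% of windows, and the EBF core, present in 11.8%, were absent from these 4 windows. A match is a description of letters and not a bound site. Only starts with a window were searched, 13 windows for the 8 members and a single one for Ppargc1a. A whole CRE at another start of a gene, or further away, would therefore not have been seen.

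Levels of different genes were compared as normalised counts per kilobase of exon, within a library. In wild-type the PPARs and Dio2 were highest and near each other, with Pparg at 1938, Ppara at 1777 and Dio2 at 1729.5. Esrra followed at 1174. The coactivators and Irf4 formed a middle range, with Ppargc1a at 524, Ppargc1b at 429 and Irf4 at 319. The identity factors and Esrrg were lowest and close together, with Ebf2 at 116, Prdm16 at 114 and Esrrg at 105. In Ucp1-KO Dio2 was first at 8371, Ppargc1a moved from the fifth to the fourth place at 1937, and Irf4 moved from the seventh to the last at 80.6. The order among neighbours was sensitive to the gene model. With the longest transcript of each gene Ppara (3297) and Pparg (3198) changed places in wild-type and Esrra (2271) passed Dio2. Dio2 was first and Irf4 last in Ucp1-KO with each of 3 length definitions.

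**Figure D4:**
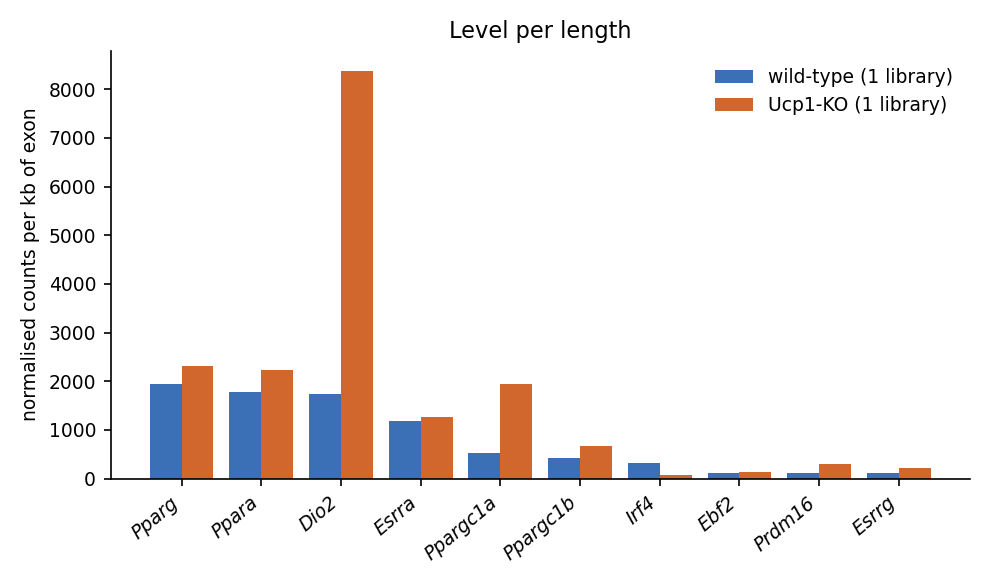
Normalised counts per kilobase of exon (linear axis from 0) for each regulator in the wild-type and the Ucp1-KO library, ordered by the wild-type level, 1 library per bar and no error bar. The Dio2 bar reaches 8371 in Ucp1-KO against 1729.5 in wild-type, and Irf4 drops to 80.6.

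The members that differed most also moved apart from each other. The ratio of Ppargc1a to Irf4, whose products work as partners, went from 2.37 in counts to 34.6, a 14.6-fold change (12.3 to 17.4). The ratio of Dio2 to Irf4 changed 19.2-fold (16.2 to 22.7). Ppargc1a and Dio2 shifted the same way, and their ratio went from 0.333 to 0.254. Like the other ratios within a library, these do not depend on the scaling between libraries.

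Partners and corepressors of the regulators were mostly near their wild-type level. Of 38 genes, 3 passed 2-fold upward and 0 downward, with 15 higher and 12 lower beyond counting error and a median log2 ratio of 0.06. These are 7.89% past 2-fold higher, 39.5% higher and 31.6% lower beyond counting error, near the shares of all genes. Past 2-fold lower the share was 0, against 9.55% of all genes. With total counts 6 were higher and 23 lower beyond counting error, against 14.4% and 53.9% of all genes. Rxrg, a retinoid X receptor and so a partner of the PPARs, had 1478 and 2525 counts and a log2 ratio of 1.07 (0.94 to 1.21). Ncoa1, a nuclear receptor coactivator, was at 1.05 (0.96 to 1.15) and Hlx, a homeobox factor linked to brown fat, at 1.02 (0.85 to 1.20). With total counts these 3 were at 0.77, 0.75 and 0.72, short of 2-fold, and the median of the list was -0.24. Rxra (-0.81) and Cebpa (-0.73), chosen after their values had been seen, were lower, and with total counts they were the 2 genes past 2-fold lower, at -1.11 and -1.04.

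Genes of the adrenergic and cyclic AMP input, 14 in all, had a median log2 ratio of 0.27. Past 2-fold 2 were higher and 1 lower, against 7.42% and 9.55% of all genes. Beyond counting error 9 were higher and 3 lower, against 31.5% and 30.5%. With total counts 4 were higher and 7 lower beyond counting error, against 14.4% and 53.9% of all genes. Adcy3, an adenylyl cyclase that makes cyclic AMP, was higher at 1.56 (1.47 to 1.66), from 2555 to 6132 counts. Adrb3, the main β-adrenergic receptor of brown adipocytes, was lower at -1.08 (-1.17 to -0.99), from 6968 to 2681 counts. Foxo1, a factor that can raise Irf4 in adipocytes and was chosen after its value had been seen, was at -0.07 (-0.14 to 0.00).

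Targets of the regulators were described next. The 15 brown-selective targets split, with a median of -0.05, or -0.36 with total counts. Past 2-fold 4 were higher and 1 lower (Ucp1), against 7.42% and 9.55% of all genes. Beyond counting error 6 were higher and 8 lower, against 31.5% and 30.5%. With total counts these numbers were unchanged, against 4.80% and 15.2% of all genes past 2-fold and 14.4% and 53.9% beyond counting error. Slc27a2, a fatty acid transport and activation enzyme, was at 2.94 (2.87 to 3.01). Elovl3, an elongase of very long fatty acids, was at 2.52 (2.42 to 2.63). Acot2, a mitochondrial acyl-CoA thioesterase, was at 2.43 (2.32 to 2.54) and Fabp3, a fatty acid carrier, at 1.72 (1.68 to 1.75). Of the others, picked after their values had been seen, Cidea, a lipid droplet protein, was at 0.49, Plin5, another lipid droplet protein, at -0.23 and Cox7a1, a respiratory chain subunit, at -0.19. Near-identical Acot genes make the value of Acot2 uncertain.

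The 24 PPARα targets had a median log2 ratio of 0.39. Past 2-fold 5 were higher and 1 lower, against 7.42% and 9.55% of all genes. Beyond counting error 19 were higher and 2 lower, against 31.5% and 30.5%. With total counts the median was 0.08. That scaling gave 12 higher and 10 lower beyond counting error, against 14.4% and 53.9% of all genes. Past 2-fold it gave 5 and 2, against 4.80% and 15.2%. Acot1 (2.70), Cyp4a14 (2.81) and Cyp4a10 (2.47) belong to families of near-identical copies and are uncertain, the latter 2 resting on 15 and 16 wild-type counts. Ehhadh, a peroxisomal oxidation enzyme chosen after its value had been seen, was at 2.05 (1.98 to 2.12), from 4884 to 16426 counts. Pex11a was at -1.09, with an interval of -2.55 to 0.16.

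The 15 PPARγ targets, which include all 8 adipocyte markers, had a median of 0.25. Of these targets 0 were past 2-fold higher and 1 was past 2-fold lower, against 7.42% and 9.55% of all genes. The 1 lower was the fatty acid carrier Fabp5, at -1.31 (-1.46 to -1.16). Beyond counting error 9 were higher and 6 lower, against 31.5% and 30.5%, or 4 and 10 with total counts, against 14.4% and 53.9%. The 18 targets of the estrogen-related receptors and PGC-1 had a median of 0.28 and a range from -0.09 to 0.80. None was 2-fold higher or lower, against 7.42% and 9.55% of all genes. Beyond counting error 16 were higher and 0 lower, against 31.5% and 30.5% of all genes. This depended on the scaling, since total counts gave 7 higher and 9 lower, against 14.4% and 53.9% of all genes. With total counts the medians of both lists were just below 0, at -0.06 and -0.03. Beside the 3.70-fold higher level of Ppargc1a, Cs, the first enzyme of the citric acid cycle, was at 0.52 and Atp5f1b, a subunit of ATP synthase, at 0.20 or, with total counts, -0.11 (both chosen after their values had been seen).

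**Figure D5:**
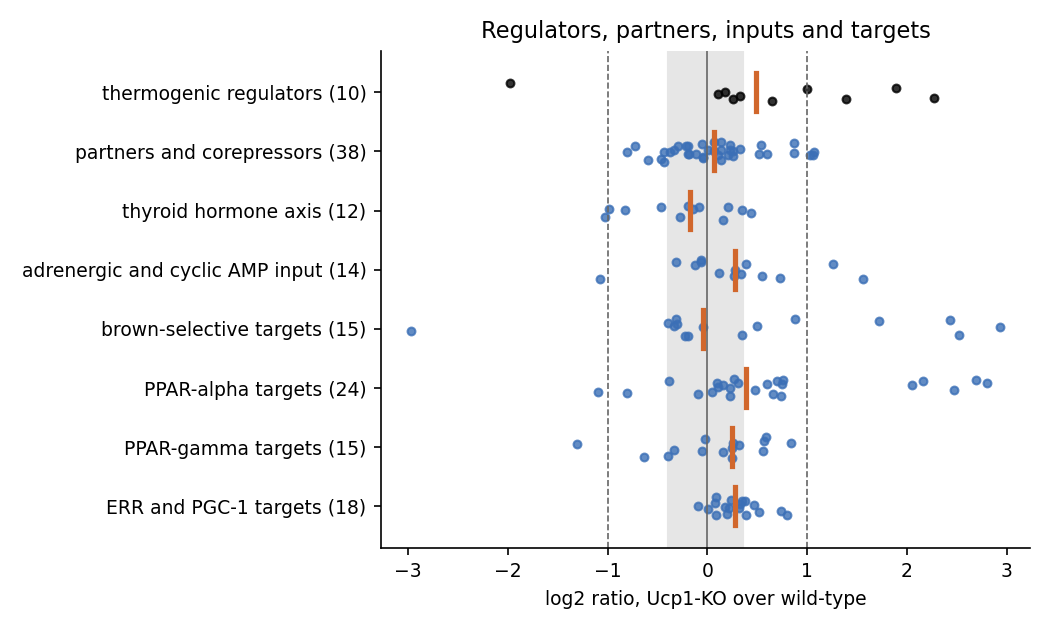
Log2 ratio of Ucp1-KO over wild-type for each gene of the regulators and of 7 lists (number of genes examined in brackets; points are spread vertically to be seen), with an orange bar at the median, a grey band for the middle 50% of all genes and dashed lines at 2-fold. PPARα targets and brown-selective targets hold points beyond 2, and the targets of estrogen-related receptors and PGC-1 stay between -0.09 and 0.80.

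The labelled tissue was checked against its markers. The 8 adipocyte markers summed to 844896 wild-type and 847555 Ucp1-KO counts, 1.60% and 1.59% of the libraries. Muscle markers had a median of -2.72, endothelial markers of -0.89 with 6 of 6 lower, and preadipocyte and fibroblast markers of -0.16 with 6 of 7 lower. Dio2, Ppargc1a, Prdm16 and Esrrg were higher in the library with less muscle and endothelial RNA, and the part of these cell types in the differences was not tested.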

How the data were processed

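Poly-A-enriched, directional libraries were made from RNA of iBAT. The deposited values are raw whole-number counts per gene that the authors made with featureCounts. The submitters' processing notes name Trim Galore, HISAT2 and build mm39; the annotation, the strand setting and the treatment of reads with several matches are not given in the sources used here. Even counts were in excess among genes with 1 to 10 counts (70.7% in wild-type, 73.4% in Ucp1-KO), as counting both mates would give, so counting intervals were computed on read pairs (counts divided by 2).

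Median-of-ratios size factors (1.11 for wild-type, 0.901 for Ucp1-KO; DESeq2 1.42.0 in R 4.3.3) scaled the counts. Poisson, conditional binomial (Clopper-Pearson) and binomial intervals, and exact conditional intervals for ratios of ratios, came from SciPy 1.17.1 and cover 95%. The ratio script was tested on simulated data. Genes averaging 10 or more normalised counts were examined. Positions and exon lengths are those of GENCODE release M39 on GRCm39, joined by symbol for 97.1% of these genes. Promoter sequences are from RefSeq, and 8 of 10 members had a window that is used here.

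The members, the 16 gene lists and the alternatives (TMM factors from edgeR 4.0.16, total counts with and without mitochondrially encoded genes, a reference to adipocyte markers, scaling without muscle markers, a pseudocount of 5, other filters, a smaller size rule, intervals on counts, other gene lengths) were chosen with earlier results of these data known. All members were named, and of each other list up to 4 genes in each direction that were at least 2-fold different; any other gene is marked in the text as picked later. A few genes that this rule names are not reported here.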

Additional observations from a re-analysis of the deposited data

How the results depend on the processing

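Median-of-ratios, TMM factors, scaling without muscle markers and a pseudocount of 5 gave every member the same value within its counting interval. With total counts the median over all genes became -0.31. This scaling moved the median of the members from 0.49 to 0.18, total counts without mitochondrially encoded genes moved it to 0.36, and a reference to adipocyte markers to 0.20. Esrra turned to -0.21, -0.0235 and -0.18 under these 3 scalings, and Pparg to -0.0553 with total counts and -0.0346 relative to adipocyte markers. The medians of the adrenergic and cyclic AMP input (-0.0331), the PPARγ targets (-0.0559), the targets of estrogen-related receptors and PGC-1 (-0.0305) and the adipocyte markers (-0.0207) also changed sign with total counts, by the same shift. The members at least 2-fold higher were 3 under each scaling, pseudocount and filter and 5 with a 1.5-fold rule (15.6% of all genes), and 1 was lower throughout (18.1% of all genes with the 1.5-fold rule). Members beyond counting error numbered 9 as reported, between 7 and 9 under the other scalings and 10 with intervals on counts as deposited, which called 5549 genes higher and 5452 lower. The share of higher genes among all those past 2-fold depended on the scaling, with 1128 higher and 1453 lower as reported and 732 and 2320 with total counts. With no count minimum they were 2187 and 2844, and with a minimum mean of 50 they were 617 and 811. Depth limits Irf4, Ebf2 and Esrrg most, which had the widest intervals. The order by level per length was also computed with the canonical transcript, an alternative picked once the data had been seen. No paired analysis was possible because there was only 1 library for each genotype, and leaving out a library was not possible for the same reason.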

Other observations

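Relatives of the regulators, 17 genes of the same families, were not described above. Of 15 examined, 3 were at least 2-fold higher in Ucp1-KO and 1 at least 2-fold lower, against 7.42% and 9.55% of all genes. Their median log2 ratio was -0.08. With total counts 2 were at least 2-fold higher and 1 lower, against 4.80% and 15.2% of all genes. Beyond counting error that scaling gave 3 higher and 10 lower, against 14.4% and 53.9%. Pprc1, the third member of the PGC-1 family, went from 759 to 1542 counts and stood at 1.32 (1.14 to 1.503), so all 3 family members were higher in Ucp1-KO. Esrrb, the third estrogen-related receptor, went from 54 to 97 counts and stood at 1.14 (0.44 to 1.88), or at 0.83 after total-count scaling. Among the interferon regulatory factors, Irf5, typical of macrophages, was at 1.41 (0.89 to 1.97) on 88 and 191 counts, opposite to Irf4. Ebf4 was at -2.04 with a wide interval of -4.54 to -0.31, on 32 and 6 counts.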
